A study of Mus musculus with 3 samples.

Results

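The leptomeninges are the pia and arachnoid that cover the brain. The 9 genes Aldh1a2, Crabp2, Slc6a13, Slc22a6, Ogn, Fmod, Lum, Dcn and Mgp are grouped as genes of leptomeningeal fibroblasts and retinoic acid handling. They were taken by name from the gene column of the scanner files, where each had 1 probe of 60 bases, so 9 of 27629 probes with usable signal are described. RNA came from the hippocampus of male mice killed at postnatal day 120. In the advanced maternal age group (AMA) the mothers were 15 to 18 months old when paired, and in the young maternal age group (YMA) they were 3 months old; fathers were 3 months old in both. The labels name no strain. Each of 3 AMA pools and 3 YMA pools mixed RNA of 3 sons, so differences between single animals are not seen. Arrays 1, 2 and 3 each carried 1 AMA pool in the dye Cy3 and 1 YMA pool in Cy5. The dyes were never swapped, so a dye effect on a probe and the effect of maternal age cannot be told apart.

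Leptomeningeal fibroblasts lay down a collagen matrix dressed with small leucine-rich proteoglycans, and arachnoid barrier cells carry transporters that move solutes between blood and cerebrospinal fluid. The meninges are also a source of retinoic acid, which is made from retinol by way of retinal and acts on nuclear receptors in neighbouring cells. Hippocampus dissected from the brain keeps some pia on its surface and in its fissure, and the choroid plexus lies beside it. Fibroblasts with part of the same gene set also lie around larger vessels and in the stroma of the choroid plexus.

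Above local background, median spots stood at 58.0 to 62.3 intensity units in Cy3 on the 3 arrays and at 153 to 165 in Cy5. All 9 member probes were well above background in both dyes on all 3 arrays, and 0 of them had a flagged or saturated spot. All 7 hippocampal neuron markers listed for a check of the tissue were measured too. Ratios below are log2 of AMA over YMA after background correction and an intensity-dependent loess curve on each array, so a negative value means less signal in the AMA pool. The value after ± is the SD over the 3 arrays, which is the spread of the single ratios and not the standard error of their mean. A gene was called where the Benjamini-Hochberg adjusted p of limma, a linear model fitted to all 27629 probes, was under 0.05 (two-sided). With 3 arrays, precision is limited by their number.

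Of the 9 genes, 6 fell in the AMA pools: Aldh1a2, Crabp2, Slc22a6, Ogn, Fmod and Lum. Slc6a13, Dcn and Mgp had mean ratios below 0 but did not pass. Over all probes, 10.7% were called lower in AMA and 7.92% higher. The mean ratios of the 9 genes ran from -0.54 for Lum to -0.16 for Dcn, with a median of -0.38, where the median of all probes was -0.02. Of the 27 single ratios, 25 were below 0. The ratio was below 0 on all 3 arrays for 7 of the 9 genes, a pattern that 33.9% of all probes had. The falls were small, from 1.21-fold to 1.45-fold. The count of 6 was 4 without replicate 1, and 0 without replicate 2 or without replicate 3. Over all probes 2946 were called lower, and 1905, 376 and 0 without replicates 1, 2 and 3 in turn. Without replicate 3 no gene at all was thus called lower. In the whole hippocampus, fewer meningeal cells and less RNA per cell cannot be told apart.

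**Figure D1:**
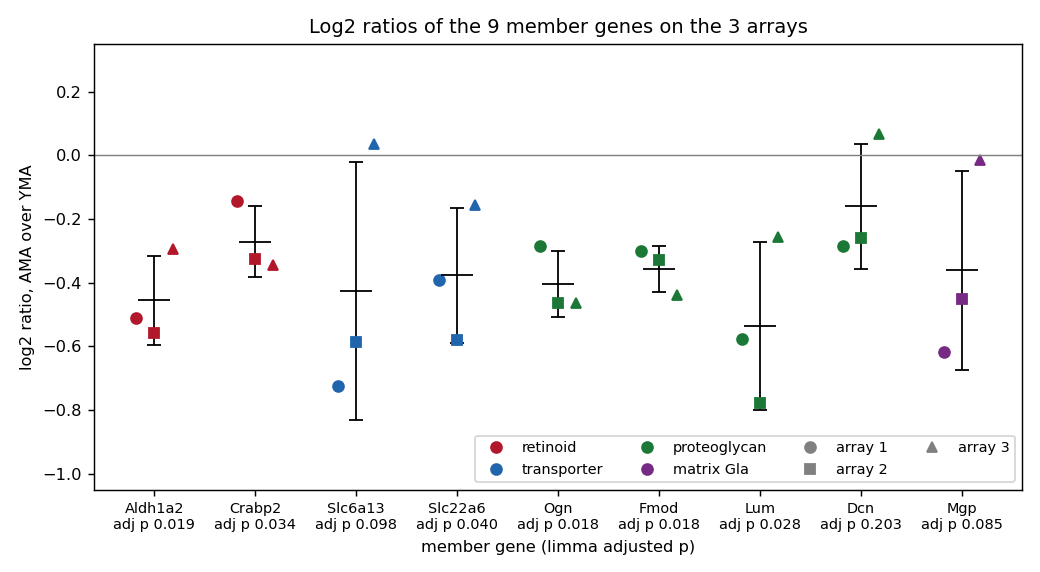
Log2 ratio of AMA over YMA (vertical axis) for each member gene (horizontal axis, with its limma adjusted p); symbols are the 3 arrays, colours the roles, and the bar with whiskers the mean and SD. Of 27 points 25 lie below 0, and the exceptions are array 3 for Slc6a13 and Dcn.

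Aldh1a2 makes retinoic acid from retinal and is the retinaldehyde dehydrogenase of the meninges. Its promoter is shown beside that of the proteoglycan gene Ogn because both genes fell while these windows differ widely in base composition. Both sequences run 5′ to 3′ from 250 bases before to 50 bases after the gene start, from RefSeq (GRCm38.p6), with each CG in capitals.
Aldh1a2 promoter, chr9:71215539-71215838, plus strand: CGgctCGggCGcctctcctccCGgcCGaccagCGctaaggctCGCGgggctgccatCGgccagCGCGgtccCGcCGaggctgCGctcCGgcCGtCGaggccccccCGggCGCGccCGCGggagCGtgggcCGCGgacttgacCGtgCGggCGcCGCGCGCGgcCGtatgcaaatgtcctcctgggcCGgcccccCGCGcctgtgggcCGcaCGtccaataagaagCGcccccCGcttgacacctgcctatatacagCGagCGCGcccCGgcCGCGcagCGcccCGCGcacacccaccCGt
Ogn promoter, chr13:49607765-49608064, plus strand: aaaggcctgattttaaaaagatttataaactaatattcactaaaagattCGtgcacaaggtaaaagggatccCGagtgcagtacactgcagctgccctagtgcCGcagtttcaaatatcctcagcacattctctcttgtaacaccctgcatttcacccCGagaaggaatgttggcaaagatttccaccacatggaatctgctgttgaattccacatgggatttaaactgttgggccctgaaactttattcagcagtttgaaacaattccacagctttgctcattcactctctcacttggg
The Aldh1a2 window holds 50 CG dinucleotides at 78% GC and the Ogn window 4 at 42.3% GC. Over all 32851 promoter windows of the table the median was 7 CG and 52.7% GC, and 94.6% held at least 1 CG. RefSeq windows were found for 5 of the 9 genes, 7 windows in all because Slc6a13 has 3. Of the motifs searched on both strands, AGGTCA, the half-site of nuclear receptors such as those for retinoic acid, was in 1 of the 7 windows (a Slc6a13 window) and in 16.3% of all windows. GGGCGG, the Sp1 box, was in 1 of 7 (Slc6a13) and in 35.7% of all. TATAAA was in 1 of 7 (Ogn) and in 13.6% of all, on both strands there in overlapping matches. The AP-1 site TGACTCA and the forkhead site GTAAACA were in 0 of 7, and in 5.20% and 3.65% of all windows.

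Among the retinoid genes, Aldh1a2 had normalised log2 levels of 8.97, 8.40 and 8.96 in AMA pools 1, 2 and 3, against 9.48, 8.95 and 9.26 in YMA pools 1, 2 and 3. Each AMA pool was below the YMA pool on its own array, but AMA pools 1 and 3 lay just above YMA pool 2, so the groups overlapped. The ratios on arrays 1, 2 and 3 were -0.51, -0.56 and -0.30, with a mean of -0.46 ± 0.14 (SD, n = 3, limma adjusted p = 0.0185), a 1.37-fold fall.

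Crabp2 binds retinoic acid in the cytoplasm and hands it to the retinoic acid receptor. Its levels were 9.78, 9.32 and 9.51 in AMA pools 1, 2 and 3, against 9.92, 9.65 and 9.86 in YMA pools 1, 2 and 3. The groups overlapped through AMA pool 1, which was above YMA pool 2. Its ratios of -0.14, -0.33 and -0.34 had a mean of -0.27 ± 0.11 (SD, n = 3, limma adjusted p = 0.0342), the smallest fall among the 6 called genes.

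Slc6a13 encodes GAT2, a transporter of GABA and taurine that in the brain sits mainly in the meninges. Its levels were 9.45, 9.02 and 9.64 in AMA pools 1, 2 and 3, against 10.17, 9.61 and 9.60 in YMA pools 1, 2 and 3. AMA was lower on arrays 1 and 2, and the pools of array 3 were nearly equal. The ratios of -0.73, -0.59 and 0.04 averaged -0.43 ± 0.41 (SD, n = 3), and Slc6a13 was not called (limma adjusted p = 0.0979). The limma 95% interval ran from -0.80 to -0.05, so the fall of Aldh1a2 lies within it. Its SD was higher than that of 98.8% of probes.

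Slc22a6 encodes OAT1, an organic anion exchanger best known from the kidney and present in barrier cells of the meninges. Its levels were 8.92, 8.37 and 9.03 in AMA pools 1, 2 and 3, against 9.31, 8.95 and 9.19 in YMA pools 1, 2 and 3. AMA pool 2 stood clearly below the other 5 pools, and AMA pool 3 was above YMA pool 2. The ratios of -0.39, -0.58 and -0.16 had a mean of -0.38 ± 0.21 (SD, n = 3), and Slc22a6 fell (limma adjusted p = 0.0398). Leaving out any replicate ended this call, with limma adjusted p from 0.0518 to 0.132. Without replicate 3 no probe of the whole array was called lower.

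Lumican, decorin, fibromodulin and osteoglycin (Lum, Dcn, Fmod and Ogn) are small leucine-rich proteoglycans that bind collagen or the matrix around it and shape fibril assembly. Lum showed the largest fall of the 9 genes. Its levels were 8.86, 8.38 and 9.11 in AMA pools 1, 2 and 3, against 9.44, 9.16 and 9.37 in YMA pools 1, 2 and 3. It was the only member of the 9 whose groups did not overlap, which 23.9% of all probes show in this direction. The ratios of -0.58, -0.78 and -0.26 had a mean of -0.54 ± 0.26 (SD, n = 3, limma adjusted p = 0.0282). Leaving out any replicate ended this call (limma adjusted p from 0.0515 to 0.0704), as did Agilent's processed signals (0.0728). As for Slc22a6, the loss without replicate 3 was shared by every probe called lower.

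Ogn had levels of 8.65, 8.13 and 8.60 in AMA pools 1, 2 and 3, against 8.93, 8.59 and 9.06 in YMA pools 1, 2 and 3. Its ratios were -0.29, -0.46 and -0.46, with a mean of -0.40 ± 0.10 (SD, n = 3, limma adjusted p = 0.0180). Fmod had levels of 8.10, 7.71 and 8.14 in AMA pools 1, 2 and 3, against 8.40, 8.04 and 8.58 in YMA pools 1, 2 and 3. In both genes every AMA pool was below its array partner, but AMA pools 1 and 3 were above YMA pool 2, so the groups overlapped. The Fmod ratios of -0.30, -0.33 and -0.44 had a mean of -0.36 ± 0.07 (SD, n = 3, limma adjusted p = 0.0181), the smallest spread of the 9 genes.

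Dcn had levels of 12.15, 11.92 and 12.65 in AMA pools 1, 2 and 3, against 12.43, 12.18 and 12.59 in YMA pools 1, 2 and 3. AMA pool 3 was the highest of the 6. The ratios of -0.29, -0.26 and 0.07 averaged -0.16 ± 0.20 (SD, n = 3), and Dcn was not called (limma adjusted p = 0.203, with a 95% interval from -0.36 to 0.04). That interval includes 0 and also the mean of Crabp2.

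Mgp, matrix Gla protein, is a secreted inhibitor of calcification made by fibroblasts and vascular cells. Its levels were 10.74, 10.68 and 11.54 in AMA pools 1, 2 and 3, against 11.36, 11.13 and 11.55 in YMA pools 1, 2 and 3. AMA pools 1 and 2 were below all YMA pools, and AMA pool 3 was level with its array partner. The ratios of -0.62, -0.45 and -0.01 averaged -0.36 ± 0.31 (SD, n = 3), and Mgp was not called (limma adjusted p = 0.0846, with a 95% interval from -0.66 to -0.07).

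**Figure D2:**
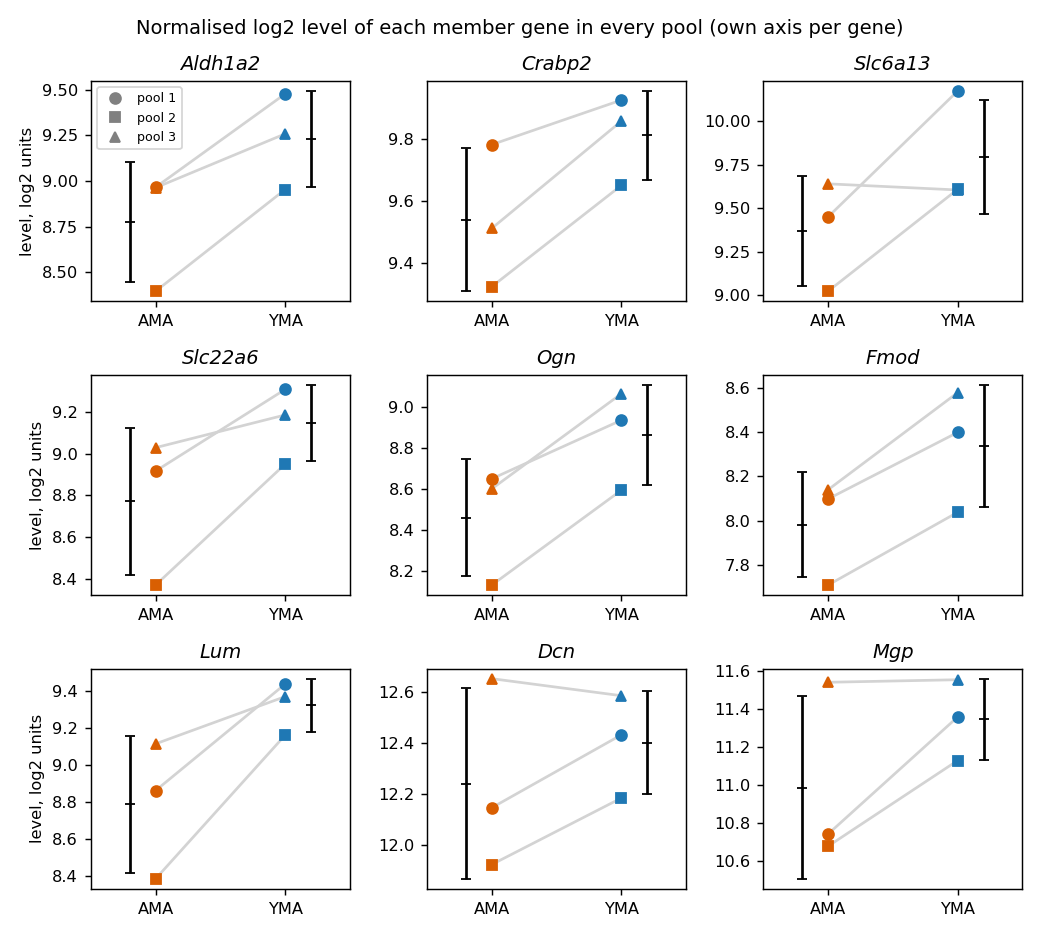
Normalised log2 level (vertical axis, own scale per gene) of the 9 genes in AMA pools (left, orange) and YMA pools (right, blue); grey lines join the pools of an array, and whiskers give mean and SD of a group. Pool 2 is lowest in both groups for all genes but Slc6a13, and AMA pool 3 is level with or above its partner for Slc6a13, Dcn and Mgp.

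The 6 levels of a gene also show what the ratio hides. AMA pool 2 was the lowest of the AMA pools for 9 of 9 genes and YMA pool 2 the lowest of the YMA pools for 8 of 9, with Slc6a13 the exception. Pool 2 was lowest in both groups for 8 genes, as for 10.08% of all probes. This count was chosen after the values were seen. The pools of number 2 share array 2, so the array and the pools cannot be told apart. The SD over AMA pools was larger than over YMA pools for 7 of 9 genes, and for 60.72% of all probes. When the channels were tested as 6 separate samples, without using which pools shared an array, 0 of the 9 genes were called. Among the 6 that fell, limma adjusted p ran from 0.0617 for Lum to 0.151 for Slc22a6. Over all 27629 probes that fit called 3197 lower and 2362 higher, against 2946 and 2189 from the ratios.

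The order of the 3 arrays in the ratio split the 9 genes, and the split did not follow their roles. Array 3 had the highest ratio, nearest to or above 0, for 6 genes: Aldh1a2, both transporters, Lum, Dcn and Mgp. Array 3 had the lowest ratio for the other 3: Crabp2, Ogn and Fmod. Over all probes array 3 was highest for 35.1% and lowest for 36.7%. Within the retinoid pair Aldh1a2 and Crabp2 stood on opposite sides, and among the proteoglycans Lum and Dcn stood opposite Ogn and Fmod. The transporters were alike in having array 3 highest, and Slc6a13 was lowest on array 1 while Slc22a6 was lowest on array 2. These ranks describe 3 arrays and carry no test.

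With each gene's own mean removed, the closest pair was Crabp2 and Ogn, at a Euclidean distance of 0.02 log2 units over the 3 arrays, and Slc22a6 and Lum came next at 0.08. Both pairs join genes of different roles. The median distance was 0.38 over the 8 pairs that share a role and 0.30 over the 28 pairs that do not. Averaged by role, the retinoid genes had ratios of -0.33, -0.44 and -0.32 on arrays 1, 2 and 3, the proteoglycans -0.36, -0.46 and -0.27, and the transporters -0.56, -0.58 and -0.06. Aldh1a2 and Crabp2 lay on opposite sides of their own means on arrays 1 and 3 and both below them on array 2, so the retinoid mean is more even than either gene.

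**Figure D3:**
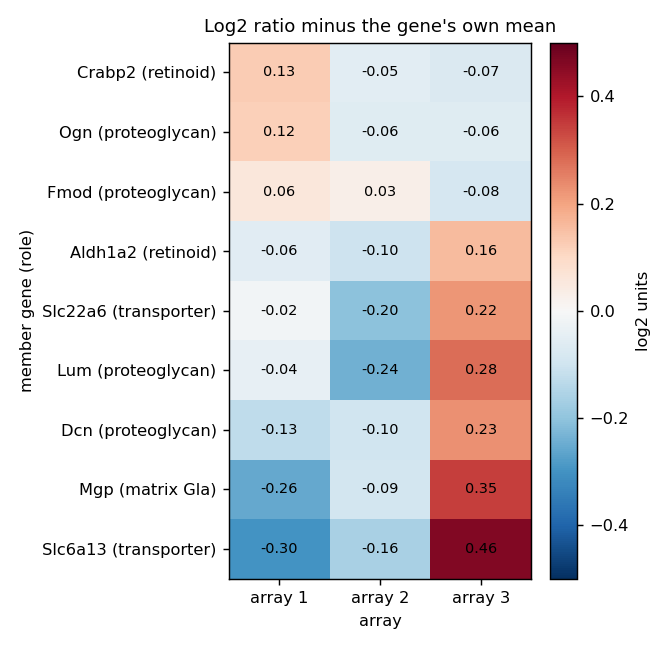
Log2 ratio on each array (columns) minus the gene's own mean (rows are genes with their role; red is above the mean, blue below). Crabp2, Ogn and Fmod are above their mean on array 1 and below it on array 3, and the other 6 genes the reverse.

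In the authors' deposited table of log2 ratios of Cy3 over Cy5 the order of arrays was the same for 8 of the 9 genes. Dcn differed, with -0.29 and -0.30 on arrays 1 and 2 in the authors' deposited table, values that nearly coincide. The largest difference between the deposited ratio and the one used here was 0.07 log2 units, for Lum. Over 7 ways of making the ratios, array 3 was highest in all 7 for the same 6 genes. It was lowest in 7 for Fmod, in 6 for Crabp2 and in 3 for Ogn, whose ratios on arrays 2 and 3 nearly coincide.

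By a rule of nearest profile over the 3 arrays, the genes nearest to the transporter mean were Slc16a9 (distance 0.09), Stra6 (0.14) and Col1a1 (0.14), of 15514 named genes searched. Slc16a9 is a monocarboxylate transporter family member, Stra6 the membrane receptor for retinol-binding protein and Col1a1 a chain of type I collagen. Their ratios were -0.51, -0.64 and -0.02 for Slc16a9, -0.57, -0.49 and 0.04 for Stra6, and -0.43, -0.61 and -0.11 for Col1a1 on arrays 1, 2 and 3. Within a distance of 0.1 lay 1 gene. The retinoid and proteoglycan means lay in denser regions, with 77 and 47 genes within that distance. The nearest to the retinoid mean were Tha1, Tns1 and Bsg (0.02 to 0.03), and to the proteoglycan mean Ranbp3l, Inhbb and Tmem86a (each 0.02).

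Of 24 other retinoid genes 18 were measured, 1 fell, 2 rose and 15 did not pass, with a median of -0.09. With Agilent's processed signals 0 were lower and 1 higher, and with median centring 15 were lower and 1 higher (list median -0.52, or -0.19 against the all-probe median). By the brightest probe of each of 21038 genes, 11.2% of genes were lower and 8.11% higher. The lower call was Crabp1, the other cellular retinoic acid binding protein, which was well above background on 1 of 3 arrays in AMA and on 3 in YMA, so it was kept only through the group where it is brighter. Among the 16 genes well above background in both dyes on all arrays, 0 were lower and the same 2 higher by limma. The higher ones were Rdh11, a retinal reductase, which rose (0.34 ± 0.08, SD, n = 3, limma adjusted p = 0.0188), and Dhrs3, a retinal reductase induced by retinoic acid (0.18 ± 0.03, SD, n = 3, limma adjusted p = 0.0444). The signs of Crabp1, Rdh11 and Dhrs3 turned under median centring, where the median of all probes was -0.33. Relative to that median Crabp1 was at 0.46, Rdh11 at 0.20 and Dhrs3 at -0.12.

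Cyp26b1, which degrades retinoic acid, had ratios of -0.23, 0.12 and -0.25 and a mean of -0.12 ± 0.21 (SD, n = 3, limma adjusted p = 0.330). The receptor gene Rarb, itself a target of retinoic acid, had a mean of -0.07 ± 0.09 (SD, n = 3, limma adjusted p = 0.367), and 1 of its 3 kept probes had the opposite sign. Of the measured receptors Rara, Rarb, Rarg, Rxra, Rxrb and Rxrg, 0 passed by limma, and 2 (Rxrb and Rarg) had an unadjusted p under 0.05. Without each replicate in turn the list had 0 lower calls, and 1, 0 and 0 higher calls without replicates 1, 2 and 3.

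Of 12 other small leucine-rich proteoglycans 8 were measured, 2 were called lower and 6 did not pass, with a median of -0.15. With median centring 2 were lower and 3 higher, and with Agilent's processed signals 1 was lower. Podn, podocan, fell to a ratio of -0.52 ± 0.23 (SD, n = 3, limma adjusted p = 0.0250), and array 3 was nearest to 0 for it. The other call, Omd, osteomodulin, was well above background on 1 of 3 arrays in AMA and on 3 in YMA, so it was kept only through YMA. Among the 4 genes well above background in both dyes on all arrays, 1 (Podn) fell. Under median centring the sign of Omd turned (0.02, or 0.35 against the all-probe median), and so did the list median (0.02). Bgn, biglycan, had a mean of -0.19 ± 0.08 (SD, n = 3, limma adjusted p = 0.0545). Prelp, well above background in AMA on 2 of 3 arrays, was at 0.18 ± 0.09 (SD, n = 3, limma adjusted p = 0.0659). Without replicates 1, 2 and 3 in turn 1, 0 and 0 of the 8 were called lower.

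Of 10 other solute carriers of the leptomeninges 9 were measured, 4 fell, 2 rose and 3 did not pass, with a median of -0.26. The lower calls were 0 with Agilent's processed signals, 2 with offset 16 and 6 with median centring, and the higher calls 1, 2 and 1. Slc22a8, the organic anion transporter OAT3, fell (-0.44 ± 0.23, SD, n = 3, limma adjusted p = 0.0320). Slc13a3, a dicarboxylate transporter, was at -0.35 ± 0.16 (SD, n = 3, limma adjusted p = 0.0315) and the amino acid transporter Slc6a20a at -0.25 ± 0.06 (SD, n = 3, limma adjusted p = 0.0288). The fourth was Slc22a2, an organic cation transporter, well above background in AMA on 2 of 3 arrays. Its sign turned with median centring, to 0.37 above the all-probe median. Slc38a2, a neutral amino acid transporter, rose (0.47 ± 0.12, SD, n = 3, limma adjusted p = 0.0163). With the arrays median centred its sign turned, to 0.18 above the all-probe median. Slc26a2, a sulfate transporter, rose too. Without replicates 1, 2 and 3 in turn 0 of the 9 were called lower. For Slc22a8 and Slc22a2, as for the member Slc22a6, array 2 had the lowest ratio and array 3 the highest, an order that 6 of the 9 genes had.

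Of 27 other leptomeningeal fibroblast markers 24 were measured, 10 were called lower, 0 higher and 14 did not pass, with a median of -0.28. With Agilent's processed signals 2 were lower, with offset 16 there were 7, and with median centring 19 were lower and 1 higher. Without replicates 1, 2 and 3 in turn, 5, 4 and 0 were called lower, and 1, 0 and 0 higher. Of the 10, 3 (Spp1, Foxc2 and Tbx18) were not well above background in AMA on all arrays and were kept only through YMA. Among the 20 genes well above background in both dyes on all arrays, 7 fell. Ptgds, which makes prostaglandin D2, was at -0.39 ± 0.06 (SD, n = 3, limma adjusted p = 0.0161) and Col6a1, a chain of type VI collagen, at -0.29 ± 0.06 (SD, n = 3, limma adjusted p = 0.0221). Foxc2, a forkhead factor, was well above background in AMA on 1 of 3 arrays, and was 0.22 above the all-probe median with median centring. Spp1, osteopontin, was not well above background in any AMA pool and was kept through YMA. Its ratio of -0.45 (limma adjusted p = 0.0176) was -0.22 without background correction and -2.09 with Agilent's processed signals, so its size is not settled. Its sign turned with median centring, to 0.44 above the all-probe median. Igf2, an imprinted growth factor, was at -0.72 ± 0.36 (SD, n = 3, limma adjusted p = 0.0268), larger than any member gene. The fibrillar collagen genes Col1a1 (limma adjusted p = 0.0513), Col1a2 (0.0545) and Col3a1 (0.239) did not pass. Array 3 had the highest ratio for 19 of the 24, where it did for 36.2% of all genes. It was also highest for 8 of 9 solute carriers and 14 of 15 choroid plexus markers. The same held for 9 of 10 pericyte and smooth muscle, 7 of 9 endothelial, 5 of 7 neuron and 3 of 5 astrocyte markers. For the other retinoid genes it was 9 of 18, for the other proteoglycans 2 of 8 and for ependymal markers 1 of 7.

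**Figure D4:**
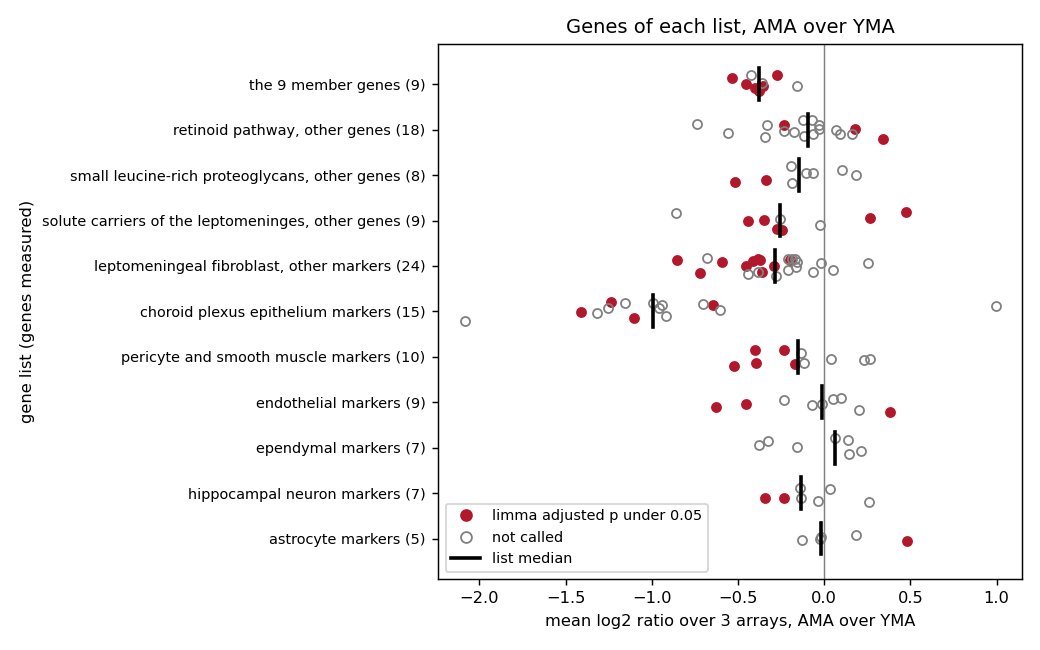
Mean log2 ratio of AMA over YMA (horizontal axis) of every measured gene in the member set and in 10 comparison lists (vertical axis); filled points passed limma at an adjusted p under 0.05, and black bars are list medians. All 9 members lie below 0, and the choroid plexus markers lie farthest to the left, with Kcne2 alone far to the right. Kcne2 had ratios of -0.53, 0.34 and 3.18 on arrays 1, 2 and 3 (limma adjusted p = 0.327). It was well above background in YMA on 1 of 3 arrays, so it was kept only through AMA.

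Markers of neighbouring cell types were counted in the same way. All 15 choroid plexus epithelium markers were measured, 4 fell, 11 did not pass and the median was -0.99. With Agilent's processed signals and with offset 16 the lower calls were 0, and with median centring 14. Their summed linear level ran from 18830 to 107100 in AMA pools and from 118600 to 162700 in YMA pools, so the groups did not overlap. Ttr and Enpp2, neither of which passed, made up most of that sum. Without them, a choice made after the values were seen, the other 13 markers summed to 5327, 3437 and 10240 in AMA pools 1, 2 and 3 and to 9425, 13310 and 12690 in YMA pools 1, 2 and 3, and the groups overlapped. Ttr, the thyroxine carrier of the choroid plexus, had ratios of -1.67, -3.95 and -0.63 and did not pass (limma adjusted p = 0.0645). Of the 15 choroid plexus markers 13 had the order array 2 lowest and array 3 highest, an order shared by Aldh1a2, Slc22a6 and Lum and by 13.1% of all genes. Slc6a13, Dcn and Mgp were lowest on array 1. Crabp2, Ogn and Fmod were lowest on array 3, where the median of the choroid plexus markers was nearest to 0 (-0.40). Dcn was nearly level on arrays 1 and 2, and Crabp2 and Ogn on arrays 2 and 3. Ogn was lowest on array 3 in 3 of 7 ways of making the ratios. The part of choroid plexus in the falls was not tested.

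All 10 pericyte and smooth muscle markers were measured, 5 fell and 5 did not pass, with a median of -0.15. With Agilent's processed signals the lower calls were 3. Means were above 0 for 3 of the 10, Kcnj8 at 0.27 (limma adjusted p = 0.0581), Rgs5 at 0.23 (limma adjusted p = 0.0838) and Abcc9 at 0.04. Pdgfrb, a growth factor receptor that fibroblasts share, was at -0.52 ± 0.19 (SD, n = 3, limma adjusted p = 0.0201), and Vtn, vitronectin of pericytes, at -0.39 ± 0.04 (SD, n = 3, limma adjusted p = 0.0150). The summed level of the list ran from 8470 to 10220 in AMA pools and from 10260 to 12170 in YMA pools. Of 9 endothelial markers 2 fell, 1 rose and 6 did not pass, with a median of -0.01. Cldn5, a tight junction protein, was at -0.63 ± 0.22 (SD, n = 3, limma adjusted p = 0.0184). Flt1 rose (0.38 ± 0.07, SD, n = 3, limma adjusted p = 0.0163), but 1 of its 3 kept probes had the opposite sign and its own sign turned under median centring (0.09 against the all-probe median). Of 7 ependymal markers 0 passed by limma and 2 (Spef2 and Rsph1) had an unadjusted p under 0.05. Spef2, with the smallest p, was at 0.14, with another kept probe of opposite sign (limma adjusted p = 0.0868, unadjusted p = 0.0258). The part of vascular cells in the falls was not tested.

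For hippocampal neurons 2 of 7 markers fell and 5 did not pass, with a median of -0.14 and summed levels from 71890 to 74840 in AMA pools against 74150 to 79570 in YMA pools. Neurod6, a transcription factor of pyramidal neurons, was at -0.34 ± 0.12 (SD, n = 3, limma adjusted p = 0.0239). Among 5 astrocyte markers Gfap rose (0.48 ± 0.12, SD, n = 3, limma adjusted p = 0.0163) and 4 did not pass. Gfap turned to -0.15 with median centring, 0.18 above the all-probe median, and 1 of its 3 kept probes had the opposite sign. Without replicates 1 and 2 in turn, 0 and 7 choroid plexus, 3 and 0 pericyte, 2 and 1 endothelial and 1 and 0 neuron markers were called lower, and without replicate 3 there were 0 in each list. The neuron list had 0 lower calls with Agilent's processed signals, and with median centring 7 pericyte, 7 endothelial, 3 ependymal, 7 neuron and 5 astrocyte markers were lower. With the arrays median centred instead of loess-corrected, all 9 member genes were called lower, as were 17004 of all 27629 probes. The members then lay at -0.29 (Fmod) to -0.64 (Lum) against the all-probe median. The medians of the neuron and astrocyte lists lay at -0.44 and -0.34 against it, so such values were not particular to the members.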

How the data were processed

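Each of 3 arrays compared an AMA with a YMA pool; replicates are pools, and litters are not stated. Per the file headers, the authors scanned all 3 on 1 slide in 1 scan and made raw spot and background intensity values with Agilent Feature Extraction 10.10.1.1 (build mm9, 2 colours). Processed signals are dye-normalized intensity values, and the log ratio column is log10 of Cy5 over Cy3, per the file headers. Flags and control types are of another (other) kind, per the file headers. In the authors' value table the deposited values are log2 of Cy3 over Cy5 (column medians near -0.005, direction set from the scanner values); normexp and loess on median signals gave its values within 5.0e-10.

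From mean signals, limma 3.58.1 in R 4.3.3 applied normexp (offset 50) and loess (span 0.3), leaving out controls and flagged spots. Probes well above background in Cy3 or in Cy5 on all 3 arrays were kept, 27629 of 39429. The ratio was tested with an intercept (lmFit, eBayes, two-sided, 2 residual plus 3.42 prior degrees of freedom), with Benjamini-Hochberg over kept probes. The offset pulls dim ratios towards 0. Levels are channel values after Aquantile scaling. Symbols came from the files, updated through RefSeq accessions (28025 probes matched). A gene is its brightest kept probe.

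Members and lists were chosen with earlier results of these data known. The text names all members, up to 4 genes with the smallest p per list, Ttr, Igf2, Cyp26b1, Bgn and Slc22a8, and the 3 genes nearest to each role's mean profile; other names were chosen after their values were seen. Tested on simulated AMA over YMA data (27629 probes), limma called 90 of 100 probes changed by 0.5 log2 units (median estimate 0.41), and 99 of 100 changed by 1 (0.78). The simulated noise was drawn separately for each spot. Deviations that many probes share in a pool or on an array were not simulated, so these counts do not cover them.

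Tried besides were the deposited table, offset 16, Agilent's processed signals, uncorrected background, arrays median centred or scaled to each other, other filters, a variance trend, separate channels, the mean over probes and leaving out each replicate. Counting list genes well above background in both dyes, and summing choroid plexus markers without the brightest pair, were added after the data were seen.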

Additional observations from a re-analysis of the deposited data

How the results depend on the processing

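The 9 member genes kept a mean ratio below 0 in all 14 alternatives run for each. The filters, the variance trend, the separate channels and the mean over probes leave the ratio unchanged, so its sign could not turn there. Of the 6 calls, 3 held with Agilent's processed signals and 4 with offset 16; median centring called 9 and the separate channels, with no replicate block, 0. The count was 6 from the deposited table, with scaling between arrays, uncorrected background, no filter, the stricter filter, the variance trend and the mean over probes (each member has 1 probe). Leaving out a replicate gave 0 to 4. Array 3 was highest for 6 members in all 9 alternatives run for that count, of which the filters and the mean over probes could not change it. Over all probes, 2189 were higher and 2946 lower; with Agilent's processed signals 1169 and 1451, with median centring 5995 and 17004 (26.1% of calls higher, against 42.6%), and leaving out a replicate 29 to 1458 higher and 0 to 1905 lower. Without replicate 3, 8421 probes had an unadjusted p under 0.05 by limma. Under median centring the role means moved to -0.83 (retinoid), -0.86 (transporters) and -0.80 (proteoglycans). The causes were not tested. Cy3 signals were weaker than Cy5 signals on all 3 arrays, so the AMA side limits dim probes.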
